A study of Mus musculus with 47 samples.

Results

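10 genes that mark inhibitory interneurons of the brain, or encode the peptides and proteins these cells make, were followed in the brains of 3xTg mice on diets low in 1 branched-chain amino acid. The genes were taken from a list and found by symbol and Ensembl identifier, and all 10 of 10 were present among the 55416 genes of the count tables. They were Gad1 and Gad2 (GABA synthesis), Sst, Npy, Vip and Cck (neuropeptides), Pvalb and Calb2 (calcium-binding proteins), Reln (a secreted matrix protein) and Lamp5 (a membrane protein of a cortical interneuron class). All 10 passed the filter on low counts in each sex.

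In build GRCm38, with the GENCODE M21 annotation, Gad1 (ENSMUSG00000070880) lies at chr2:70553072-70602014 and Gad2 (ENSMUSG00000026787) at chr2:22622205-22693874, both on the plus strand. The peptide genes are Sst (ENSMUSG00000004366, chr16:23889573-23890958, minus), Npy (ENSMUSG00000029819, chr6:49822710-49829507, plus), Vip (ENSMUSG00000019772, chr10:5639218-5647617, plus) and Cck (ENSMUSG00000032532, chr9:121489824-121495694, minus). Pvalb (ENSMUSG00000005716, chr15:78191114-78206400), Calb2 (ENSMUSG00000003657, chr8:110137502-110168210) and Reln (ENSMUSG00000042453, chr5:21884454-22344702) lie on the minus strand, and Lamp5 (ENSMUSG00000027270, chr2:136052239-136069917) on the plus strand. Levels per kb divide by the length of a gene's merged exons.

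3xTg mice carry human transgenes that give them amyloid and tau pathology, and serve as a model of Alzheimer's disease. Males and females received a Control diet or a diet restricted in isoleucine (IleR), leucine (LeuR) or valine (ValR) from 6 months of age, for 9 months, and brain RNA was then sequenced. Every group carried the 3xTg genotype, so no group here was non-transgenic. The males were 4 Control, 3 IleR, 3 LeuR and 4 ValR libraries, and the females were 6 Control, 5 IleR, 6 LeuR and 6 ValR libraries. A further 10 male libraries named in the labels were not analysed here.

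The tissue label reads brain, the methods name the left hemisphere, and the extraction text in the labels names liver. Genes of all neurons were high in each of the 37 libraries, where 8 pan-neuronal genes summed to between 4684 and 8102 CPM (counts of a gene scaled to a common library size, with TMM factors). Library totals ran from 12682687 to 25722333 counts in males and from 10672599 to 21370973 in females. No 2 libraries of a group agreed within counting noise. The study counts its groups in mice, and the labels do not tie each library to an animal, so p-values measure the spread between these libraries.

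Interneurons are the local inhibitory neurons of cortex, hippocampus and other regions, and release GABA, which the enzymes encoded by Gad1 and Gad2 make from glutamate. Forebrain interneuron classes are told apart by the peptides and calcium-binding proteins they carry, with Sst, Pvalb, Vip and Lamp5 each marking a main class of the cortex. Several of the genes are also active elsewhere: Cck in cortical and hippocampal excitatory neurons, Pvalb in Purkinje cells and in interneurons of the cerebellum, and Calb2 and Reln in cerebellar granule cells. In bulk tissue, fewer cells of a type and less RNA per cell cannot be told apart.

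The stretches of DNA before the 4 peptide genes are shown because these are the genes that passed as lower in males, Sst under IleR and ValR only. For Npy, Vip and Cck these are the 150 bases before the RefSeq start, 5′ to 3′ on the gene's strand, in build GRCm38.p6, and 0 of them lie in an exon of GENCODE M21. For Sst the RefSeq start lies inside the GENCODE gene, which begins farther upstream, and 114 of the 150 bases fall in its 5′ UTR, so a site of 30 bases is shown. Capitals mark TGACG on either strand, which is the core of the cAMP response element, and in Sst the full palindrome TGACGTCA, which holds TGACG on both strands. The Sst site lies on the minus strand (chr16:23890874-23890903), Npy on the plus strand (chr6:49822560-49822709), Vip on the plus strand (chr10:5639068-5639217) and Cck on the minus strand (chr9:121495695-121495844).
Sst: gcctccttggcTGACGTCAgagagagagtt
Npy: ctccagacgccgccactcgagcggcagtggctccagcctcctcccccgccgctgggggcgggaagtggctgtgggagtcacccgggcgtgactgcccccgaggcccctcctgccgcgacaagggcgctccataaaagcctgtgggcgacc
Vip: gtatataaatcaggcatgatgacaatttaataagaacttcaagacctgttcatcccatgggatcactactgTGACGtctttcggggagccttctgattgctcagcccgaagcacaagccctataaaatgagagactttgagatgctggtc
Cck: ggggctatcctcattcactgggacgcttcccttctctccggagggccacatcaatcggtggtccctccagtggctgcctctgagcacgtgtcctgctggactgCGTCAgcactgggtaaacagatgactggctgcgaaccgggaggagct
In windows from 250 bases before to 50 after the RefSeq start, TGACGTCA was present in 1 of the 9 genes with a window (all but Calb2), namely Sst, and in 1.79% of all 32851 RefSeq windows. TGACG on either strand was present in 4 of 9 (Sst, Vip, Cck and Gad2) and in 20.8% of all windows. TAATTA, a core bound by many homeodomain proteins, was present in 0 of 9 and in 5.29% of all windows. The 9 genes have 11 windows, so a count of genes and a share of windows are unlike measures. These matches describe the sequence only.

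Control 4 and LeuR 21 stood apart from the other males of their groups. In Control 4, 12 genes of forebrain excitatory neurons summed to 2583 CPM, against 6283 to 8797 in the other 3 Control males. Of 8 hypothalamic peptide genes, 6 passed the filter in males. Over these LeuR 21 held 682 CPM, against 0.701 to 4.10 in the other 13 male libraries. An alternative chosen after the data were seen leaves this pair out, and its values stand beside results they touch. Among females 4 of the 8 hypothalamic genes passed the filter. They summed to 38.7 to 130 CPM in IleR 42, LeuR 43, ValR 32 and ValR 33 and to at most 5.50 in the others.

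Brain region markers also differed between the male diets. The 12 forebrain excitatory genes summed to 2583 to 8797 CPM in Control-fed males, 559 to 884 in IleR, 247 to 1453 in LeuR and 541 to 738 in ValR. The 12 cerebellar genes summed to 74.2 to 136 CPM in Control, 1654 to 4339 in IleR, 305 to 1702 in LeuR and 1799 to 5584 in ValR. The 12 brainstem and spinal cord genes summed to at most 19.1 CPM in Control, 80.0 to 289 in IleR, 12.9 to 658 in LeuR and 129 to 620 in ValR. Between 5 and 8 of the brainstem genes were at 0 in each Control male, and 7 in LeuR 21, while 0 were at 0 in the other restricted males. These lists were joined in a region score, which averages the log2 CPM of the cerebellar and the brainstem genes and subtracts the forebrain average. In the score of each sex, only genes that passed the filter on low counts in that sex were used. These were all 12 brainstem genes in males but 5 of the 12 in females, so the scores of the sexes rest on different genes. None of the 10 genes enters the score. Control-fed males scored -8.21 to -5.72 and restricted males -3.96 to 3.83, so the score separated Control from restricted males, as diet did. The ranges of IleR (0.46 to 2.82), LeuR (-3.96 to 2.81) and ValR (2.64 to 3.83) overlapped. In females it ran from -7.24 to 2.68 and overlapped between all 4 diets.

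Other marker lists moved with the male diets too. The 8 genes of striatal medium spiny neurons summed to 104 to 1303 CPM in Control. In IleR they summed to 108 to 150, in LeuR to 102 to 213 and in ValR to 125 to 143. Under IleR, LeuR and ValR 4, 0 and 6 of these passed as lower, and 0 as higher. Of 8 microglia genes 2, 0 and 4 were lower and 0 higher. Of 8 olfactory bulb genes 2, 2 and 3 were lower and 1 was higher under each. Among all genes 8.68%, 6.33% and 12.4% were lower. The 8 pan-neuronal genes summed to 5794 to 7764 CPM in Control males, 4748 to 5303 in IleR, 5120 to 5363 in LeuR and 5001 to 5721 in ValR, so every restricted male was below every Control male. The 10 immediate early genes, which neuronal activity induces, summed to 305 to 1380 CPM in Control and to 109 to 151, 92.4 to 188 and 95.9 to 114 in the restricted diets, with 8, 8 and 9 of 10 lower and 0 higher in the test. The 8 oligodendrocyte genes summed to 4673 to 9785 CPM in Control, 10408 to 15205 in IleR, 6581 to 18295 in LeuR and 9671 to 16644 in ValR, and 0 of 8 passed under any diet. The part of these lists in the changes of the 10 genes was not tested.

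Per exon length, the order of the genes in Control-fed males was Sst, Cck, Lamp5, Gad1, Pvalb, Gad2, Npy, Calb2, Vip and Reln by the mean. Sst had 185 ± 46.3 CPM per kb of exon (mean ± SD, n = 4) and Cck 117 ± 38.8. Lamp5 (53.1 ± 27.8), Gad1 (52.5 ± 8.31), Pvalb (43.0 ± 17.3), Gad2 (40.5 ± 10.4) and Npy (36.4 ± 16.2) each differed from the next of these 5 by less than the larger of their SDs on this scale. Calb2 (12.7 ± 17.6), Vip (10.3 ± 3.90) and Reln (4.67 ± 1.26) had the lowest means. Without Control 4, Calb2 had 3.90 ± 1.27 CPM per kb (n = 3), below Reln at 4.76 ± 1.53, Npy (44.2 ± 4.79) ranked above Pvalb (42.4 ± 21.2) and Gad2 (36.6 ± 8.47), and the rest kept their order. In ValR-fed males Pvalb had the highest level per kb (248 ± 71.0) and Calb2 the next (134 ± 39.9), whereas Vip had the lowest (0.624 ± 0.215).

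**Figure D1:**
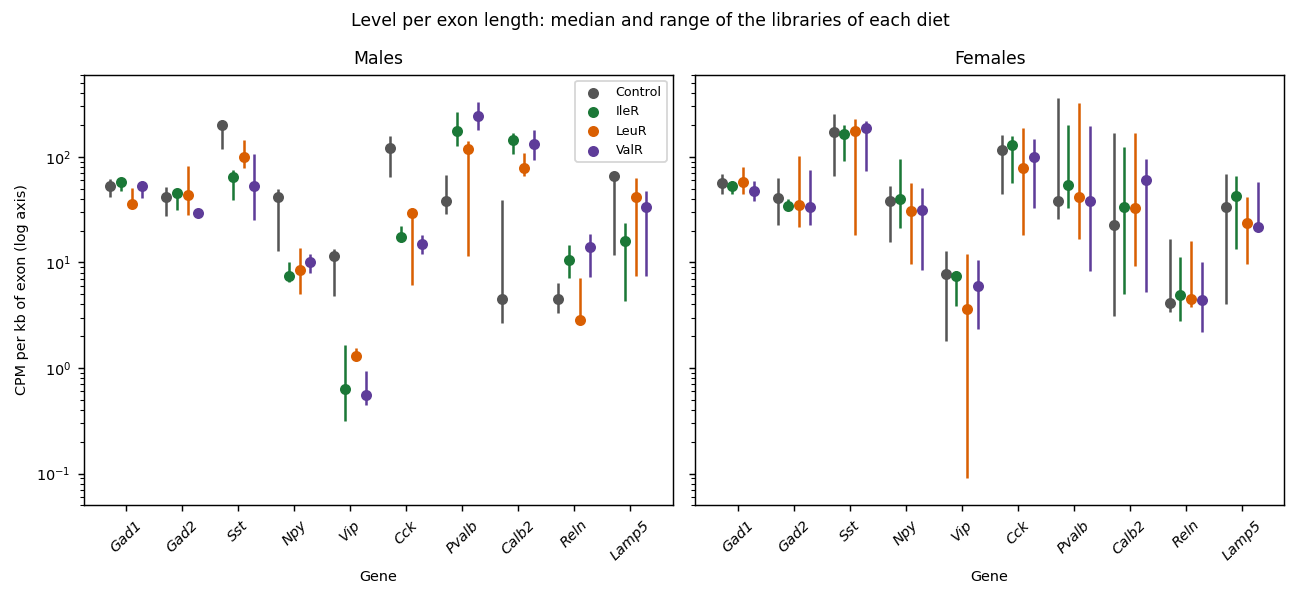
CPM per kb of exon (log axis) for each gene, with a point at the median and a line over the range of the libraries of each diet, males and females in separate panels. In males the Control ranges of Sst, Npy, Vip, Cck, Pvalb, Calb2 and Reln were separate from those of ValR, while in females the ranges of all 4 diets overlapped for each gene.

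Against Control, 7 of the 10 genes passed the test in IleR-fed males (3 higher, 4 lower), where 15.3% of all 22197 genes tested in males passed (6.63% higher, 8.68% lower). Under LeuR 4 passed (1 higher, 3 lower), against 10.1% of all genes (3.81% higher, 6.33% lower). Under ValR 7 passed (3 higher, 4 lower), against 23.5% of all genes (11.1% higher, 12.4% lower). The median log2 fold change over the 10 genes was -0.80, -0.44 and -0.63, and over all genes it was 0.04, 0.05 and 0.03. Counted by groups that did not overlap, 3 genes were higher and 4 lower under IleR (29.3% of all genes, 14.8% higher and 14.5% lower). The same counts were 1 and 2 under LeuR (17.7%, 8.21% and 9.48%) and 3 and 4 under ValR (26.4%, 12.7% and 13.6%). The 3 comparisons share the same Control libraries.

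GABA synthesis genes did not pass the test in either sex. Gad1, which makes most of the brain's basal GABA, was 399, 318, 415 and 472 CPM in the 4 Control males, 361, 438 and 449 in IleR, 270, 266 and 387 in LeuR, and 377, 310, 434 and 454 in ValR. The 4 male groups overlapped. The log2 fold change against Control was 0.05 ± 0.17 (SE) for IleR, -0.38 ± 0.18 for LeuR and -0.03 ± 0.16 for ValR, with adjusted p from 0.181 to 0.935 in edgeR's quasi-likelihood test. Its 95% intervals were -0.32 to 0.43, -0.76 to -0.0037 and -0.37 to 0.32. Without Control 4 and LeuR 21 the LeuR value was -0.55, with adjusted p = 0.0479, and without LeuR 21 alone it was -0.56.

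Gad2, the form of the enzyme found mainly at nerve terminals, was 259, 161, 307 and 225 CPM in Control males, 264, 283 and 184 in IleR, 254, 166 and 476 in LeuR, and 172, 190, 174 and 157 in ValR. The highest value was that of LeuR 21, and the ValR values fell inside the Control range apart from ValR 12. Its log2 fold changes were 0.04 ± 0.29, 0.33 ± 0.29 and -0.46 ± 0.27, with adjusted p of 0.957, 0.5 and 0.255. The 95% intervals of the Gad2 change were -0.59 to 0.67, -0.30 to 0.96 and -1.04 to 0.13. The antisense gene Gad1os overlaps Gad1, and Gad2 holds 2 miRNA genes on its own strand. How strand was used in counting was not stated, so reads of the pair could not be told apart, and the same holds for Reln and its antisense genes Gm10475 and Gm16110.

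The neuropeptide genes were lower in males on the restricted diets. Vip, Cck and Npy passed the test under all 3 diets, and Sst under IleR and ValR. Vip encodes vasoactive intestinal peptide, the mark of interneurons that act mainly on other interneurons. It was 34.7, 45.3, 16.3 and 43.6 CPM in Control males, 2.17, 5.65 and 1.07 in IleR, 4.16, 5.30 and 4.40 in LeuR, and 1.51, 3.17, 1.77 and 2.04 in ValR. Every restricted male was below every Control male. Vip fell to 8.72% of the Control level under IleR (log2 fold change -3.52 ± 0.50, adjusted p = 0.00117), 13.2% under LeuR (-2.92 ± 0.48, adjusted p = 0.00526) and 6.08% under ValR (-4.04 ± 0.46, adjusted p = 0.000131). Without IleR 14 the IleR value was -4.43, or 4.64% of Control (adjusted p = 0.00681). Without Control 4 and LeuR 21 these log2 values of Vip were -3.75, -3.12 and -4.28 (adjusted p of 0.000126, 0.00157 and 2.08e-05).

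Cck encodes cholecystokinin, a peptide of a class of basket interneurons and of many excitatory neurons. Control males had 157, 206, 84.0 and 162 CPM, against 28.7, 20.5 and 22.5 in IleR, 8.01, 42.5 and 37.9 in LeuR, and 17.1, 15.7, 23.8 and 21.8 in ValR. Each restricted male was below each Control male, the restricted diets overlapped, and the lowest Control value was again that of Control 4. Under IleR the log2 fold change of Cck was -2.68 ± 0.46 (adjusted p = 0.00229), under LeuR -2.38 ± 0.45 (adjusted p = 0.00851) and under ValR -2.96 ± 0.42 (adjusted p = 0.000319). Without the pair of libraries that stood apart they were -2.89, -2.81 and -3.16 (adjusted p of 0.000537, 0.0026 and 0.000104).

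Npy encodes neuropeptide Y, carried by several interneuron classes. Levels were 27.7, 25.1, 7.26 and 22.3 CPM in Control males, 3.66, 4.22 and 5.69 in IleR, 2.87, 4.76 and 7.68 in LeuR, and 5.47, 6.00, 4.48 and 6.75 in ValR. Only LeuR 21 reached above a Control library, and that library was Control 4. Npy fell under all 3 diets, with log2 fold changes of -2.19 ± 0.42 in IleR (adjusted p = 0.00423), -2.02 ± 0.42 in LeuR (adjusted p = 0.0122) and -1.86 ± 0.37 in ValR (adjusted p = 0.00302). Leaving both of these libraries out gave -2.48, -2.72 and -2.14 (adjusted p of 2.86e-05, 8.32e-05 and 1.81e-05). The LeuR call was lost without LeuR 19 (-1.72, adjusted p = 0.0624).

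Sst encodes somatostatin, the peptide of interneurons that target dendrites. It was 161, 151, 85.8 and 135 CPM in Control males, 53.9, 45.9 and 28.0 in IleR, 56.4, 71.8 and 103 in LeuR, and 52.3, 76.6, 23.6 and 18.3 in ValR. LeuR overlapped with Control, while IleR and ValR did not. The log2 fold change was -1.64 ± 0.44 for IleR (adjusted p = 0.023) and -1.64 ± 0.40 for ValR (adjusted p = 0.00906). For LeuR it was -0.79 ± 0.42, with a 95% interval of -1.70 to 0.13 and adjusted p = 0.254. The IleR call was lost without Control 1, Control 3, IleR 14 or IleR 17 (-1.70 to -1.43, adjusted p up to 0.0999). With Control 4 and LeuR 21 left out, the Sst values were -1.81, -1.21 and -1.80 (adjusted p of 0.0113, 0.108 and 0.00554).

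The calcium-binding genes were higher in males on the restricted diets, Calb2 under all 3 and Pvalb under IleR and ValR. Calb2 encodes calretinin, a mark of part of the Vip interneurons. It was 4.63, 9.05, 68.0 and 6.70 CPM in Control males, 184, 252 and 292 in IleR, 114, 135 and 190 in LeuR, and 192, 162, 266 and 314 in ValR. All restricted males were above all Control males, with Control 4 far above the other 3. Calb2 rose 11.0-fold under IleR (log2 fold change 3.46 ± 0.72, adjusted p = 0.00639), 6.63-fold under LeuR (2.73 ± 0.71, adjusted p = 0.0285) and 10.6-fold under ValR (3.40 ± 0.70, adjusted p = 0.00338). Without Control 4 and LeuR 21 the log2 values were 5.14, 4.20 and 5.09, and without Control 4 alone 5.15, 4.42 and 5.10. The LeuR call was lost without Control 1, Control 3, Control 5, LeuR 19 or LeuR 20 (2.39 to 2.88, adjusted p up to 0.0861).

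Pvalb encodes parvalbumin, the calcium buffer of fast-spiking interneurons. It was 30.0, 32.8, 46.8 and 69.6 CPM in Control males, 132, 181 and 279 in IleR, 123, 146 and 12.0 in LeuR, and 205, 187, 301 and 340 in ValR. The single low restricted library was LeuR 21. Pvalb rose 4.40-fold under IleR (log2 fold change 2.14 ± 0.58, adjusted p = 0.0247) and 5.77-fold under ValR (2.53 ± 0.56, adjusted p = 0.00554). For LeuR the log2 value was 1.06 ± 0.57 (adjusted p = 0.255) and, without Control 4 and LeuR 21, 1.62 (adjusted p = 0.0108). The IleR call was lost without Control 1, Control 3, IleR 14 or IleR 17 (1.79 to 2.20, adjusted p up to 0.102).

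Reln encodes reelin, which guides neuronal layering and acts on synapses. It was 151, 108, 104 and 79.2 CPM in Control males, 169, 250 and 347 in IleR, 68.3, 169 and 64.3 in LeuR, and 322, 174, 343 and 436 in ValR. IleR and ValR lay above Control and LeuR overlapped with it. Reln rose under IleR (log2 fold change 1.21 ± 0.37, adjusted p = 0.0439) and ValR (1.53 ± 0.35, adjusted p = 0.00719), and its LeuR value was -0.14 ± 0.38 (adjusted p = 0.846). The IleR call was lost without the pair of libraries that stood apart (1.17, adjusted p = 0.0527), and without any 1 of Control 3, Control 4, Control 5, IleR 14, IleR 17, ValR 7 or ValR 10 (0.91 to 1.22, adjusted p up to 0.191).

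Lamp5, carried by neurogliaform interneurons and also by superficial cortical neurons, was 183, 202, 34.4 and 203 CPM in Control males, 68.5, 46.3 and 12.5 in IleR, 185, 123 and 21.9 in LeuR, and 101, 138, 96.4 and 21.7 in ValR. Control 4 lay inside the range of each restricted group. Lamp5 did not pass, at -1.88 ± 0.81 on the log2 scale in IleR, -0.50 ± 0.77 in LeuR and -0.80 ± 0.71 in ValR, with adjusted p of 0.138, 0.718 and 0.463. The intervals of the Lamp5 change were -3.62 to -0.14, -2.15 to 1.15 and -2.33 to 0.72. Without Control 4 and LeuR 21, Lamp5 passed the test under IleR (-2.22, adjusted p = 0.0203).

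**Figure D2:**
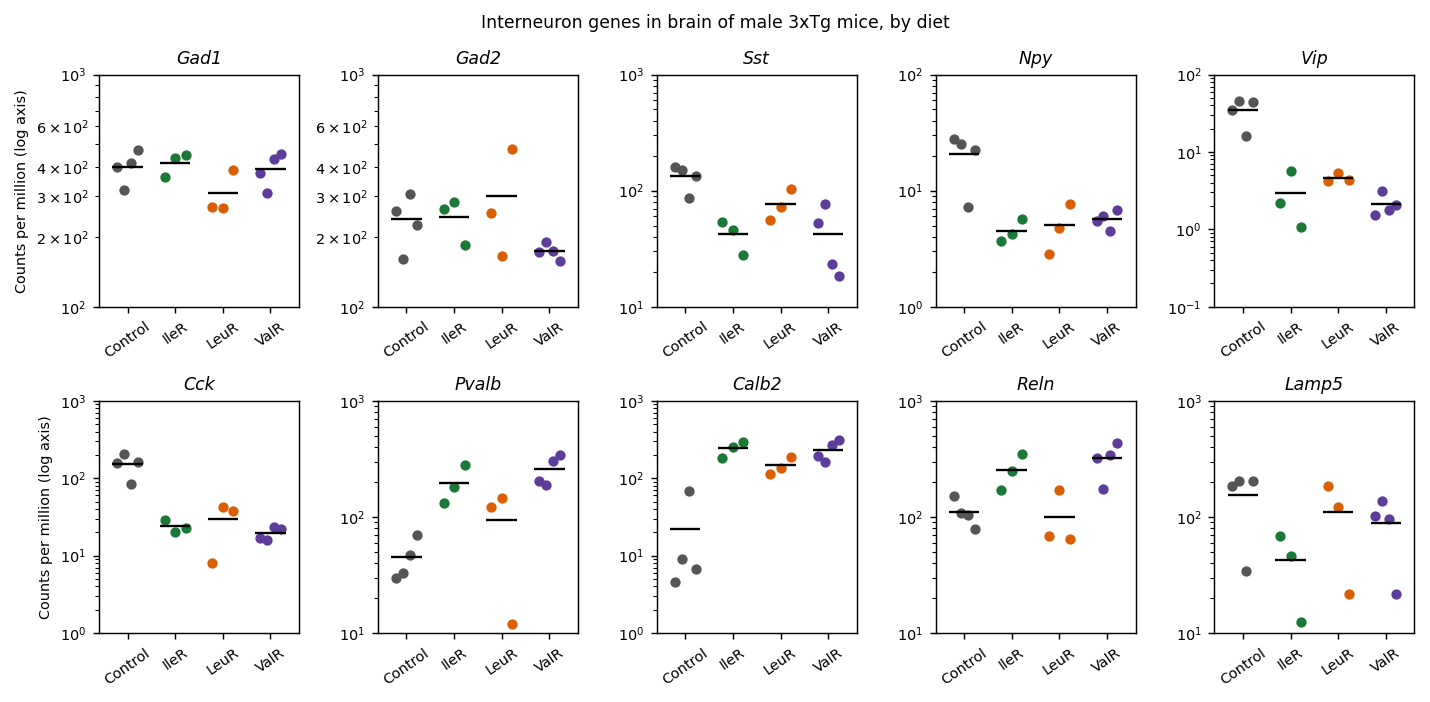
CPM (log axis) of each gene in each of the 14 male libraries by diet, with a point per library and a line at the group mean. Vip and Cck were lower, and Calb2 higher, in every restricted library than in every Control library, while Gad1 overlapped in all groups.

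The limits of these male results were measured in alternative fits. With the region score as a covariate, 0 of the 10 genes passed under any of the 3 diets, where 0.0135% of all genes passed under IleR, 0.0541% under LeuR and 0% under ValR. Npy, Cck and Pvalb changed sign under IleR and ValR. Sst had -0.39 under IleR and -0.18 under ValR. Vip had log2 values of -3.18, -2.68 and -3.67, Calb2 2.49, 2.15 and 2.29, and Reln 0.93 under IleR and 1.21 under ValR, none of which passed. In that fit the SE of the 30 male values against Control was 1.32 to 3.57 times the SE without the score. The score's part in the diet differences and that of diet cannot be told apart in males, because Control and restricted libraries did not overlap in it. The LeuR calls also depended on the fit: with only the Control and LeuR males, 0 genes of the 10 passed, and 0% of all 21015 genes did. The log2 fold changes in that fit were -2.91 for Vip, -2.36 for Cck, -2.0 for Npy and 2.71 for Calb2.

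Between restricted diets in males, 1 of the 10 genes differed. Reln was higher in ValR than in LeuR (log2 fold change 1.67 ± 0.39, adjusted p = 0.0491), where 2.75% of all genes passed (1.73% higher, 1.03% lower). This call was lost without Control 4 and LeuR 21 (1.42, adjusted p = 0.134), and in 10 of 14 fits that left out 1 male, the exceptions being Control 4, IleR 17, LeuR 20 (2.27) and ValR 9. ValR against IleR gave 0 calls, as for all genes (0%), and the 95% interval of the difference ran from -1.55 to 0.51 for Vip and from -1.20 to 0.64 for Cck. IleR against LeuR also gave 0 calls (0% of all genes). The unadjusted p was under 0.05 for 0 of the 10 genes in ValR against IleR (2.83% of all genes) and for 2 in IleR against LeuR (11.3%). In ValR against LeuR 4 of the 10 had an unadjusted p under 0.05 in edgeR, and the share of all genes is not given here.

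The genes were also set against Gad1 and Gad2 within each library, which removes library size. These ratios are not levels per interneuron, because cells were not counted. The mean log2 ratio of Vip to the geometric mean of Gad1 and Gad2 was -3.22 ± 0.90 (SD) in Control males, -7.06 ± 1.06 in IleR, -5.96 ± 0.65 in LeuR and -6.99 ± 0.51 in ValR. For Cck the ratio was -1.07 ± 0.80, -3.74 ± 0.34, -3.61 ± 1.37 and -3.75 ± 0.21. For Calb2 it was -4.69 ± 1.65 in Control, -0.40 ± 0.39 in IleR, -1.0 ± 0.31 in LeuR and -0.20 ± 0.37 in ValR. Over Gad2 alone the Calb2 means were -4.30, -0.0078, -0.93 and 0.38, so the sign turned under ValR, while Vip had -2.83, -6.67, -5.89 and -6.41 and Cck -0.68, -3.34, -3.54 and -3.16. The lowest Control ratio of Vip (-4.45) was above the highest restricted ratio (-5.31). Without the pair the Control means were -2.81 for Vip, -0.72 for Cck and -5.45 for Calb2, and the LeuR means -5.64, -3.67 and -0.92.

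In females none of the 10 genes passed the test in any of the 6 comparisons between female diets, and the background was 0% in each comparison with Control. By unadjusted p under 0.05, 0 of the 10 passed in each comparison with Control, against 2.84% of all genes in IleR, 4.03% in LeuR and 3.82% in ValR. Between restricted diets, 0 passed in ValR against IleR (4.16%), 1 (Gad1) in ValR against LeuR (4.98%) and 0 in IleR against LeuR (6.14%). limma voom and DESeq2 also called 0 of the 10 in each.

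Vip was 6.07 to 44.0 CPM in Control females (median 26.2), 28.1, 26.2, 25.5, 13.1 and 19.3 in the 5 IleR females, 0.309 to 41.2 in LeuR (median 12.4), and 7.92 to 35.6 in ValR (median 20.4). The groups overlapped. The log2 fold change of Vip under ValR was -0.42, with a 95% interval from -1.65 to 0.80. Calb2 was 5.47 to 289 CPM in Control females (median 39.7), 31.4, 8.68, 86.8, 214 and 58.9 in IleR, 16.0 to 292 in LeuR (median 57.2), and 9.18 to 164 in ValR (median 105). The 4 diets overlapped again, and the 95% interval of the ValR change in Calb2 ran from -1.51 to 2.20 on the log2 scale.

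Gad1 had the smallest SD relative to its mean of the 10 genes in Control, LeuR and ValR females, and Gad2 in IleR females. Gad1 was 341 to 519 CPM in Control females (median 432), 337, 404, 420, 446 and 406 in the 5 IleR females, 338 to 615 in LeuR (median 437), and 294 to 451 in ValR (median 365). Gad1 under ValR had a log2 fold change of -0.26 against Control (unadjusted p = 0.0619 in edgeR).

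**Figure D3:**
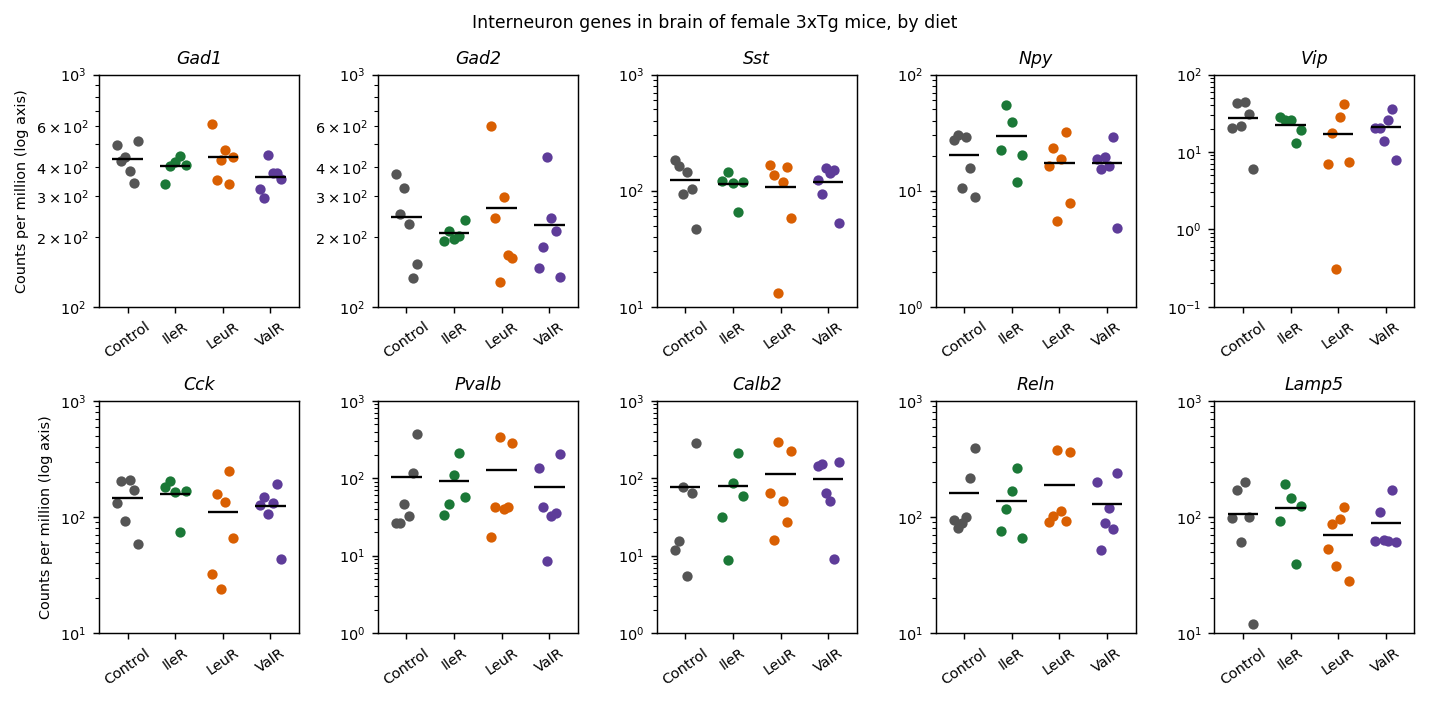
CPM (log axis) of each gene in each of the 23 female libraries by diet, with a point per library and a line at the group mean. For each gene the 4 diets overlapped, and Pvalb and Calb2 spread over more than 10-fold within Control, LeuR and ValR.

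**Figure D4:**
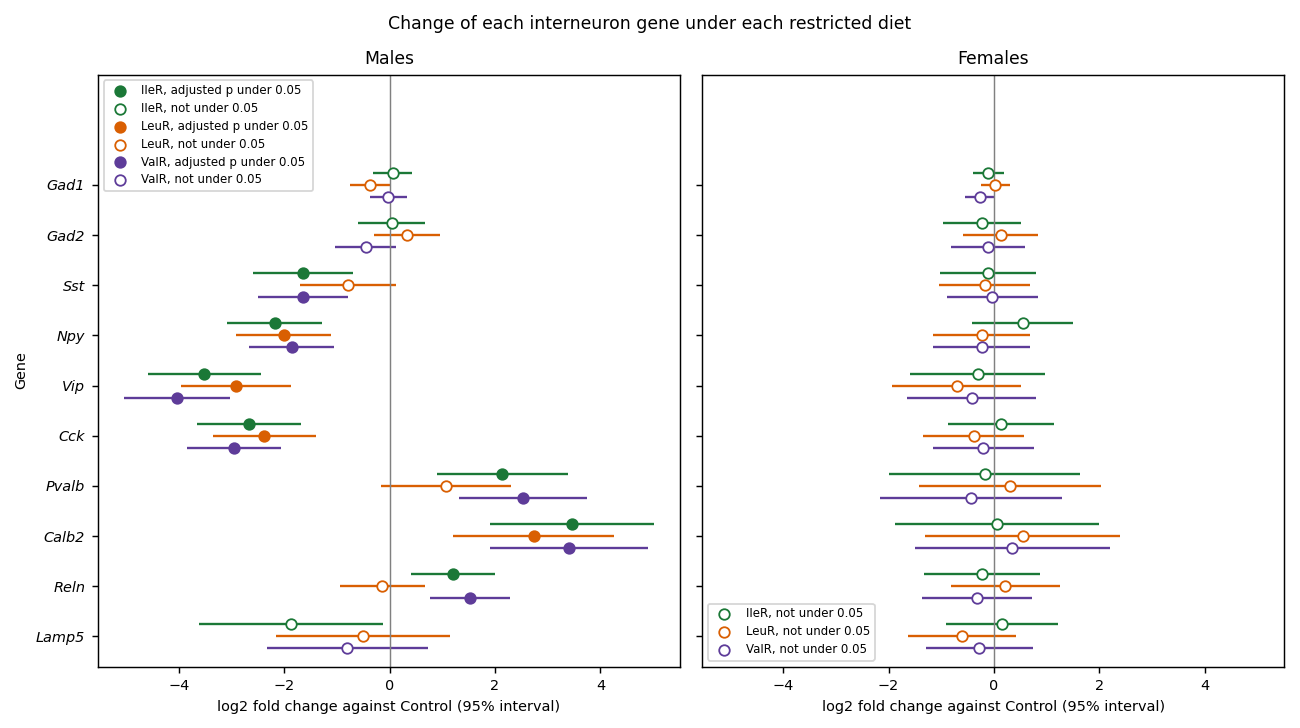
Log2 fold change of each gene against Control with its 95% interval, for the 3 restricted diets in males and in females, filled where the adjusted p is under 0.05. Filled points lie below 0 for the 4 peptides and above 0 for Pvalb, Calb2 and Reln in males, and no point is filled in females.

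The difference between the sexes was tested as the diet effect in males minus that in females. Under ValR, 2 of 10 genes passed, both lower in males, where 4.25% of all 22465 genes passed (0.677% higher, 3.57% lower): Vip (log2 difference -3.62 ± 0.89, adjusted p = 0.0241) and Cck (-2.76 ± 0.70, adjusted p = 0.0264). Pvalb (2.91), Calb2 (2.98), Reln (1.81), Sst (-1.60) and Npy (-1.64) had adjusted p from 0.111 to 0.148, and 7 of 10 genes had an unadjusted p under 0.05 (26% of all genes). Under IleR 0 passed (0.0979% of all genes), with the smallest adjusted p at 0.0739 for Npy (-2.73 ± 0.72). The IleR difference gave 3 calls in DESeq2 (4.64% of all genes), 4 without male Control 4 (3.82%), 3 without female IleR 41 (4.11%) and 3 without female LeuR 45 (2.09%). Under IleR 6 of 10 genes had an unadjusted p under 0.05 (19.1% of all genes). Under LeuR 0 passed (0.00445% of all genes) and 3 had an unadjusted p under 0.05 (13% of all genes). With the region score as a covariate, the ValR difference was -0.81 for Vip (adjusted p = 0.854) and -0.10 for Cck (adjusted p = 0.982). In limma voom neither passed (adjusted p of 0.091 and 0.0587), and both were lost in 4 of 37 fits that left out 1 library (adjusted p up to 0.0655), namely those without male Control 3, ValR 7, ValR 10 or ValR 12. With Control 4 and LeuR 21 both left out, 3 genes passed under ValR (7.28% of all genes), with Vip at -3.83 and Cck at -2.93, and 4 under IleR (4.37%).

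Within the female diets, 8 of the 10 genes had a Pearson r with the region score of at least 0.75 in size, a limit set by the weakest of the 8, as did 29.1% of 13887 genes with average log2 CPM at or above 1 (13.3% positive, 15.8% negative). Deviations from the diet mean were used, so that diet played no part, over 23 libraries. Calb2 (Pearson r = 0.90, Spearman rho = 0.94), Pvalb (0.85 and 0.79) and Reln (0.85 and 0.67) were higher where the score was higher. Sst (r = -0.90, rho = -0.87), Npy (-0.87 and -0.86), Vip (-0.80 and -0.77), Cck (-0.80 and -0.80) and Lamp5 (-0.75 and -0.81) were lower. The permutation p of r, from 100000 two-sided permutations within diets, was 1e-05 for Sst, Pvalb and Calb2, the smallest these can give, and at most 0.00015 for the other 5. Those of rho were at most 0.00194. Gad2 (r = -0.50, rho = -0.47, permutation p = 0.0366 and 0.0408) and Gad1 (r = 0.20, rho = 0.27, permutation p = 0.448 and 0.263) were less related to it. These are 10 of 20 relations computed, with p-values not adjusted. Without LeuR 45 and Control 30, the 2 libraries farthest from the median score, r was 0.89 for Calb2, 0.80 for Pvalb, 0.79 for Reln, -0.86 for Sst, -0.83 for Npy, -0.67 for Vip, -0.70 for Cck and -0.74 for Lamp5, while Gad2 had -0.35.

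**Figure D5:**
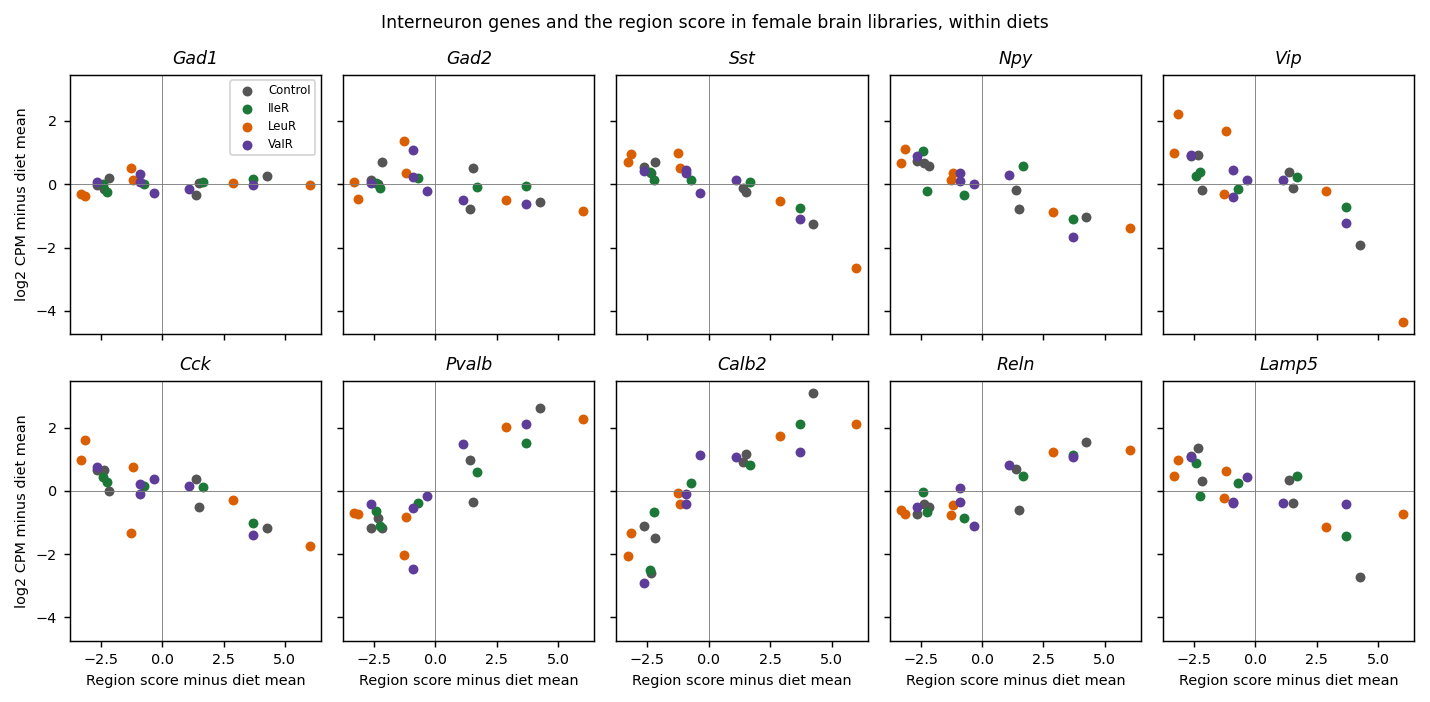
Log2 CPM of each gene against the region score in the 23 female libraries, both as deviations from the mean of their diet, with 1 point per library coloured by diet. Points of Sst, Npy, Vip, Cck and Lamp5 fall from left to right (r from -0.90 to -0.75), those of Pvalb, Calb2 and Reln rise (r from 0.85 to 0.90), and Gad1 is flat (r = 0.20).

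The female library with the highest score, LeuR 45 (2.68), had 0.309 CPM of Vip, 13.2 of Sst and 292 of Calb2. LeuR 47, in the same diet and with a score of -6.49, had 41.2 CPM of Vip, 160 of Sst and 26.9 of Calb2. Among males, over 14 libraries, r was -0.83 for Cck (rho = -0.71, permutation p = 0.0161 and 0.0227) and -0.69 for Npy (rho = -0.65, permutation p = 0.0246 and 0.0394). Of the 10 genes, 3 had an r of at least 0.69 in size, the limit being that of Npy, as did 9.98% of 13996 genes at the same level. For the other 8 genes permutation p was at least 0.107, with r = 0.71 for Pvalb (rho = 0.58), -0.35 for Sst, -0.13 for Vip, 0.17 for Calb2, 0.10 for Reln and 0.28 for Lamp5. Without LeuR 19 and LeuR 21, r was -0.67 for Cck, -0.59 for Npy, 0.20 for Pvalb, 0.64 for Calb2 and -0.42 for Lamp5.

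Genes whose pattern was most like each of the 10 over the female libraries were ranked by Pearson r of the same deviations (n = 23), as a description. Sst was most like Camkv (r = 0.99), and Cck most like Wnt9a (0.97). Vip was most like Crhbp (0.98), Pvalb most like Slc9a3 (0.98) and Calb2 most like Itga3 (0.97). Npy was most like Sept5 (0.97), Reln most like B3gnt5 (0.97), Lamp5 most like Arhgap42 (0.93) and Gad2 most like Klhl13 (0.95). Gad1 was most like Slc32a1 (0.92), the transporter that loads GABA into vesicles. The same r over the 14 male libraries was 0.92 for Calb2 with Itga3, 0.91 for Npy with Sept5 and 0.86 for Gad2 with Klhl13. It was 0.73 for Sst with Camkv, 0.67 for Reln with B3gnt5, 0.65 for Pvalb with Slc9a3 and 0.64 for Lamp5 with Arhgap42. The lowest were 0.57 for Cck with Wnt9a, 0.40 for Vip with Crhbp and 0.15 for Gad1 with Slc32a1. The points share libraries and scaling.

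Other genes of the pathway were followed from fixed lists. Among all genes, 6.63% were higher and 8.68% lower under IleR, 3.81% and 6.33% under LeuR, and 11.1% and 12.4% under ValR, with medians of 0.04, 0.05 and 0.03. Of 17 genes for receptors of the neuropeptides and reelin, counting Dab1, an adaptor inside the cell that acts after the reelin receptors, 2 were higher and 7 lower under IleR, 0 and 6 under LeuR, and 2 and 8 under ValR, with median log2 fold changes of -0.72, -0.38 and -0.91. Dab1 was among the 6 (-0.94, adjusted p = 0.0281) and did not pass under IleR or ValR. Without Control 4 and LeuR 21, when 23.5%, 21.8% and 28.2% of all genes passed, the counts were 2 and 7, 0 and 9, and 1 and 8. Vipr1, a receptor of vasoactive intestinal peptide, fell from 33.8 ± 12.5 CPM (SD, n = 4) in Control males to 4.15 ± 0.712 in IleR (n = 3) and 4.24 ± 3.58 in LeuR (n = 3), with edgeR log2 fold changes of -3.03 ± 0.52 and -3.04 ± 0.52 and adjusted p of 0.00231 and 0.00628. Sstr4, a somatostatin receptor, fell from 12.7 ± 5.42 to 1.37 ± 0.483 CPM under IleR (log2 fold change -3.23 ± 0.52, adjusted p = 0.00177). The Vipr1 values without the pair were -3.28 and -3.17, and that of Sstr4 was -3.46.

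Of 19 genes of interneuron identity 18 were tested, all for transcription factors except Adarb2, of an RNA-editing family, and Elfn1, a synaptic membrane protein. Of these, 1 was higher and 5 lower under IleR, 1 and 2 under LeuR, and 1 and 10 under ValR, with medians of -0.98, -0.42 and -1.59. Elfn1 was among the 10 (-1.30, adjusted p = 0.012), and Adarb2 did not pass under any diet. Among all genes the shares were 6.63% and 8.68%, 3.81% and 6.33%, and 11.1% and 12.4%. Without the pair the counts were 1 and 8, 1 and 3, and 1 and 11. Lhx6, a factor of Sst and Pvalb interneurons, fell from 19.6 ± 6.57 CPM in Control males to 1.78 ± 2.43 in IleR (log2 fold change -3.50 ± 1.02, adjusted p = 0.0342) and 0.538 ± 0.520 in ValR (-5.16 ± 1.04, adjusted p = 0.00291). Dlx1, a homeobox factor of forebrain interneurons, fell from 21.8 ± 6.34 to 0.236 ± 0.143 CPM under ValR (-6.45 ± 1.58, adjusted p = 0.00983), and Sp9 from 8.21 ± 3.62 to 0.530 ± 0.358 (-3.95 ± 0.79, adjusted p = 0.00289). Dlx1 was also lower in ValR than in LeuR (-6.48 ± 1.61, adjusted p = 0.04996), where the LeuR libraries had 22.3 ± 32.3 CPM, and this call was lost without the pair (-3.85, adjusted p = 0.197). The falls of Lhx6, Dlx1 and Sp9 against Control passed without it too, at -3.75 for Lhx6 under IleR and -5.39, -6.63 and -4.18 under ValR.

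Of 25 other interneuron markers and peptides, 4 were higher and 5 lower under IleR, 2 and 2 under LeuR, and 7 and 6 under ValR, with medians of -0.20, -0.11 and -0.24. The shares of all genes passing in either direction were 15.3%, 10.1% and 23.5%. Without the pair the counts were 3 and 8, 3 and 3, and 5 and 7. Chodl, a mark of long-range Sst neurons, rose from 0.737 ± 0.181 to 11.9 ± 5.47 CPM under LeuR (log2 fold change 4.00 ± 0.81, adjusted p = 0.0113), and Sncg from 4.70 ± 5.06 to 35.7 ± 21.4 (2.93 ± 0.71, adjusted p = 0.0214), and without the pair these values were 4.10 and 4.33. In ValR against LeuR, Crhbp was lower (2.32 ± 1.08 against 9.95 ± 1.65 CPM, adjusted p = 0.0481), and so was Sstr4 (0.838 ± 0.414 against 3.57 ± 2.10, adjusted p = 0.0491). Neither passed without the pair (adjusted p = 0.123 for both).

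Of 10 genes that handle GABA, 1 was higher under IleR, 2 under LeuR and 2 under ValR, and 0 were lower, with medians of 0.05, 0.04 and 0.01. Among all genes 6.63%, 3.81% and 11.1% were higher. The genes, named after their values were seen, were Abat, which breaks GABA down (0.57, 0.72 and 0.57 on the log2 scale), and Slc32a1 under LeuR (0.65) and ValR (0.54). Without the pair 2 were higher and 2 lower under IleR, 3 and 2 under LeuR, and 3 and 2 under ValR, when 23.5%, 21.8% and 28.2% of all genes passed in either direction. Of 13 peptide processing genes, 0 were higher and 2 lower under IleR, 1 and 2 under LeuR, and 1 and 4 under ValR, with medians of -0.17, -0.12 and -0.33, beside the same 15.3%, 10.1% and 23.5% of all genes. Without the pair the counts were 0 and 4, 1 and 4, and 1 and 6. In females 0 genes of these 5 lists passed in the comparisons with Control. The part of the region markers in the list results was not tested.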

How the data were processed

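Brain RNA of 3xTg mice on 4 diets was sequenced, and the authors deposited expected counts per gene (RSEM estimates, which need not be whole) in a table for males and a table for females. The submitters' processing notes name GRCm38.p5, edgeR, limma and R 3.4.3, and the aligner is not given in the sources used here. The label text describes polyA-enriched stranded mRNA libraries, while the molecule is given as total RNA. Other deposited tables hold the authors' own log2 fold changes and p-values and were not used.

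Expected counts were rounded. A gene entered the fit if some diet group had 1 count or more in each of its libraries. Counts were scaled by TMM and tested per sex with edgeR 4.0.16 (quasi-likelihood, 4 diets in 1 fit, R 4.3.3), and the diet effects were compared between sexes in a fit of all 37 libraries. P-values were adjusted over all genes tested by the Benjamini-Hochberg method, and a gene passed at an adjusted p under 0.05. Log2 CPM used a prior count of 2. Levels of males and females were scaled separately. Gene names and exon lengths came from GENCODE M21, which held 52135 of the 55416 identifiers. Fits were also run on simulated counts without region differences or libraries that stood apart, so that run does not bear on these limits. Alternatives were limma voom (limma 3.58.1), DESeq2 1.42.0, other scaling and filters, the region score as a covariate, only the 2 groups compared, and leaving out libraries. The 10 genes, the lists and the tests were chosen with earlier results of these data known. Named genes were the 10, the 3 genes of the pathway lists with the largest change past the threshold in a comparison, and the 3 most alike by r, the last 2 kinds with average log2 CPM at or above 1. Dab1, Adarb2, Elfn1 and Abat, and the LeuR and ValR values of Slc32a1, were given outside this rule. Some of the genes most alike are not reported here. Intervals used edgeR's total degrees of freedom, which add prior to residual ones. Depth ran from 10672599 to 25722333 counts per library, and the lowest count of any of the 10 genes was 5, for Vip. Of the 47 labelled libraries, 10 males were not analysed here.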

Additional observations from a re-analysis of the deposited data

Results flagged for a closer look

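Of 60 groups of 4 to 6 libraries checked (each gene in each diet and sex, without IleR and LeuR males, which have 3), 5 held 1 library far from the rest by Dixon's 95% limit, where chance gives about 1 in 20. Control 4 was far below the other Control males for Npy (7.26 CPM) and for Lamp5 (34.4 CPM). Among females, IleR 41 was low for Sst (65.7 CPM) and for Cck (73.5 CPM), and ValR 36 was low for Npy (4.79 CPM).

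The effect of ValR differed between the sexes for Vip (-3.62 on the log2 scale, males minus females, adjusted p = 0.0241 in edgeR) and for Cck (-2.76, adjusted p = 0.0264). Every ValR male was below every Control male for both genes, and the female groups overlapped. The region score of Control and ValR males did not overlap. In females, where the score held 5 of the 12 brainstem genes, Control and ValR overlapped.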

How the results depend on the processing

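No paired analysis was possible because each library number belongs to 1 library only. DESeq2, RLE scaling, edgeR's own filter and no filter kept the direction and side of the threshold of 33 of 33 gene results, and limma voom of 31. With the region score as covariate, 0 of the 10 genes passed for IleR, LeuR and ValR against Control, ValR against LeuR, and the ValR difference between sexes. In that fit the sign turned for IleR Npy (0.12), Cck (0.36) and Pvalb (-1.20), LeuR Sst (0.11) and Pvalb (-1.73), and ValR Npy (0.75), Cck (0.55), Pvalb (-1.27), Gad1 (0.44) and Gad2 (0.32), whereas Vip was at -3.18, -2.68 and -3.67 without passing. With only the 2 groups compared, LeuR gave 0 calls. Without Control 4 and LeuR 21 together, ValR against LeuR gave 0, the IleR difference between sexes 4, LeuR Reln was 0.075 and LeuR Gad2 -0.021. The sex difference gave 3 calls for IleR in DESeq2 (4.64% of all genes) and 0 for ValR in limma voom (0.129%). Leaving out 1 library gave 4 to 7 calls for IleR (8.07% to 19.5% of all genes), 2 to 6 for LeuR (2.41% to 17.7%), 7 to 7 for ValR (17.2% to 26.4%), 0 to 2 for ValR against LeuR (0% to 8.91%), and for the sex difference 0 to 4 for IleR (0% to 4.11%) and 0 to 3 for ValR (0.846% to 10.9%). It moved IleR Gad1 from -0.043 to 0.14, IleR Gad2 from -0.11 to 0.19, LeuR Reln from -0.75 to 0.11, LeuR Lamp5 from -1.11 to 0.0085, LeuR Gad2 from -0.16 to 0.60 and ValR Gad1 from -0.12 to 0.073. The cause of these changes was not tested. With Gad2 alone as denominator, 9 mean ratios moved by more than 1 SD and 55 did not. Depth limits the lowest values, down to 5 counts for Vip.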
